A study of Homo sapiens with 6 samples.

Results

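The baseline expression of UMUC-14 cells, a line established from human bladder cancer, was described from 3 reagent-alone arrays, without any contrast. These are 3 of the 6 arrays of a study of FGFR3 knockdown and were chosen by their titles, lipo#1 to lipo#3, which are called arrays 1, 2 and 3 below. The cells had grown in DMEM with fetal serum and were exposed for 40 h to LipofectaminRNAimax, a lipid reagent that carries RNA into cells, with no siRNA. The other 3 arrays, on which the cells were transfected with siRNAs against FGFR3, were not analysed here. Since all 3 arrays carry the reagent, the values describe cells under lipid transfection conditions and not untouched cells. The labels do not say whether the arrays came from separate cultures, so the spread between them may in part be technical. The data are the levels of 19361 rows on an Affymetrix U133 Plus 2.0 array, which measures RNA by its binding to short probes. Each level is a log2 value, so that a step of 1 stands for a doubling of signal, and errors are SDs over the 3 arrays.

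The urothelium, the lining of the bladder, is a layered epithelium in which basal cells with KRT5 and KRT14 keratins lie under intermediate and luminal umbrella cells that carry uroplakin plaques. Bladder cancers are commonly sorted into luminal tumours, with GATA3, FOXA1 and PPARG, and basal or squamous tumours, with KRT5, KRT14 and desmosomal cadherins of stratified epithelia. FGFR3 is a receptor tyrosine kinase for fibroblast growth factors that is recurrently mutated in bladder cancer, mostly in luminal papillary tumours, and some mutant forms signal without ligand.

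The table holds no detection calls, so the levels of genes of an unrelated tissue were used to set a reference. The 74 olfactory receptor rows, genes of the nasal epithelium, had a median level of 3.28 and ranged from 2.06 to 5.29. Their 95th percentile, 4.59, is called the background line, and their 99th percentile, 5.13, the upper line. Among all rows, 11790 of 19361 (60.9%) lay above the background line and 10386 (53.6%) above the upper line. This 60.9% is the share to set beside each count of list members below. Among protein-coding rows alone, the class of nearly all list members, the share was higher, at 66.4%. A second reference of 44 measured genes of the eye, lung, testis and other tissues had a median of 3.35, 5 of them lay above the background line and 2, MBP at 6.56 and SFTPC at 5.15, above the upper line. Probes differ in how strongly they bind, so the order of rows is an order of signal and not of molecules. A low row also does not show that a transcript is lacking: RPL10, RPL27A and EEF1A1, which growing cells use throughout, were at only 4.87, 4.98 and 7.11. The median level of the arrays was 5.41 to 5.43, and the arrays correlated pairwise at r = 0.998 over all rows, which are not independent replicates.

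**Figure D1:**
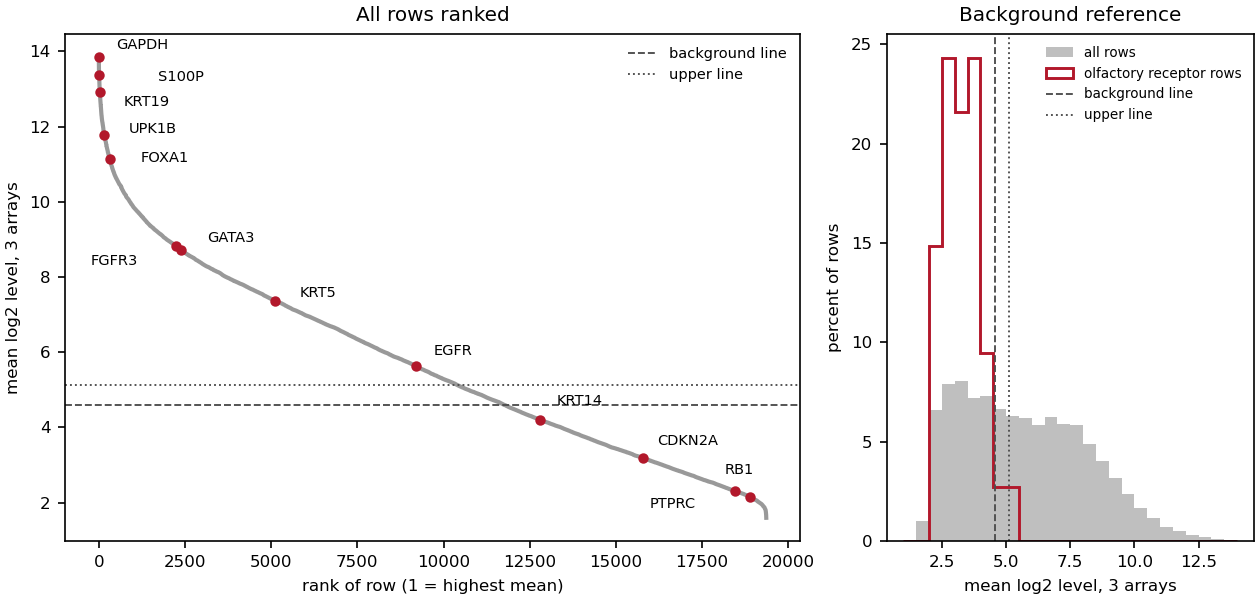
Left, the mean log2 level of each of the 19361 rows over the 3 reagent-alone arrays against its rank, with 13 genes marked in red. Right, the percent of rows per bin of 0.5 of mean log2 level for all rows (grey) and for the 74 olfactory receptor rows (red outline). The dashed line is the background line at 4.59 and the dotted line the upper line at 5.13; FGFR3 lies among the brighter rows and RB1 and PTPRC near the dim end.

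The brightest rows belonged to glycolysis, ribosomes, the cytoskeleton and a group of calcium-binding S100 proteins. GAPDH, a glycolytic enzyme, had the highest level, 13.85 ± 0.02, followed among named rows by the ribosomal proteins RPS19 at 13.53, RPS16 at 13.52 and RPL37A at 13.47. The next were S100A2 at 13.44, the cysteine protease inhibitor CSTB at 13.43, RPL13A at 13.42 and cytoplasmic actin ACTG1 at 13.39. S100P, a calcium-binding protein of the urothelium and other epithelia, reached 13.39, 13.36 and 13.36 on arrays 1, 2 and 3. The iron-storage subunit FTL was at 13.35, the tubulin TUBA1B at 13.32, the histones H4C3 and H2AZ1 at 13.22 and 13.14, and B2M, the light chain of HLA class I, at 13.13. The other named rows among the 20 brightest with a name were RPS24 at 13.33, RPS6 at 13.31, RPL5 at 13.21, RPS21 at 13.07, the chaperone HSP90AA1 at 13.09 and the glycolytic enzyme ALDOA at 13.06. These 20 rows had ranks from 1 to 23, since 3 of the 20 brightest rows of the table carry no name.

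Among the 100 brightest named rows, 20 were ribosomal proteins, 4 were glycolytic enzymes and 4 were chaperones. The S100 and annexin families held 6, which were S100A2, S100P, ANXA2, S100A11, S100A10 and ANXA10. ANXA10, an annexin of gastric and urothelial epithelium, was at 12.42 ± 0.02. Keratins held 2, KRT19 and KRT7. Epithelial genes outside these families were AQP3, a water and glycerol channel of the urothelium, at 12.62, and ALDH1A3, which makes retinoic acid, at 12.51. ID1, an inhibitor of basic helix-loop-helix factors, was at 12.89 and the short-chain dehydrogenase DHRS2 at 12.51. The signal was spread over many rows: the brightest 20 held 4.86% of the summed linear signal, the brightest 100 held 15.8% and the brightest 1000 held 52.1%.

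Promoter sequences of the brightest genes are shown because a larger share of them than of all promoters held the letters of a TATA box. The 300 bases from 250 before to 50 after the start of a gene, from RefSeq on GRCh38.p14, were matched for 13257 of 16255 coding rows (81.6%). The letters TATAAA on the strand of the gene, inside the window from 45 to 16 bases before the start where a TATA box works, were found in 439 of these (3.31%). Of the 100 brightest coding rows, 86 had a promoter and 12 of those (13.95%) held the motif in that window. These 12 were S100P, H2AZ1, ID1, ANXA2, TXN, AQP3, MT2A, DHRS2, SLC25A5, ANXA10, HNRNPAB and HSPA1A, and no ribosomal protein was among them. Over all coding rows above level 10 the share was 3.63%, close to that of all promoters, so the larger share was seen in the 100 brightest and not in bright rows in general. It was 1.0% among coding rows of level 6 to 8 and 7.73% among rows under level 3. The letters CCGGAAG on either strand, a core of ETS family sites, were found in 15.12% of all promoters, in 4.7% under level 3, in 21.04% at level 6 to 8 and in 24.55% above level 10. Among the 100 brightest they were found in 12 of 86 (13.95%), close to the share of all promoters. Among the matched promoters of ribosomal proteins, bright or not, they were found in 10 of 27 (37.04%). The median number of CpG dinucleotides was 9 under level 3, 27 above level 10 and 24 over all promoters. The base composition of these sets differs, and a motif match is a description of letters only. The promoter comparison was chosen after levels had been seen. The stretches below run from 60 bases before to 20 after the start, 5′ to 3′ on the strand of the gene, with TATAAA in capitals. RPS19 and FGFR3 are shown as bright or much-studied genes. Their 300 bases hold no TATAAA on either strand and no CCGGAAG on the strand of the gene.
S100P, chr4:6693818-6693897, plus strand: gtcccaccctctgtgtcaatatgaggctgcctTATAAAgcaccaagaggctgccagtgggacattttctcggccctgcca
H2AZ1, chr4:99950256-99950335, minus strand: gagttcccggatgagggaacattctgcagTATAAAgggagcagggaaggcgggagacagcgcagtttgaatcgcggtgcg
ID1, chr20:31605229-31605308, plus strand: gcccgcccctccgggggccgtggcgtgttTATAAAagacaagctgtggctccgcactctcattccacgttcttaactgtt
ANXA2, chr15:60397967-60398046, minus strand: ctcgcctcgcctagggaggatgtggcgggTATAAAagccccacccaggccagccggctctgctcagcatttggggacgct
RPS19, chr19:41860195-41860274, plus strand: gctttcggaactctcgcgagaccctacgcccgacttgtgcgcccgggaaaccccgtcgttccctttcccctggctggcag
FGFR3, chr4:1793233-1793312, plus strand: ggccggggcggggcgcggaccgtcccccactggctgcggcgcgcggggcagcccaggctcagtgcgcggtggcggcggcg
The motif begins 28 bases before the start in S100P and 31 bases before it in H2AZ1, ID1 and ANXA2. The 300 bases of S100P hold 5 CpG dinucleotides, those of RPS19 hold 28 and those of FGFR3 hold 51.

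Nearly all measured regulators of urothelial and epithelial genes lay above the background line. They were 23 of 24 transcription factors and splicing regulators (95.8%), against 60.9% of all rows. FOXA1, a pioneer factor of luminal cells, was at 11.14, 11.17 and 11.13 on the 3 arrays, at or above 98.4% of rows. GATA3, a luminal zinc-finger factor, was at 8.79, 8.85 and 8.81, and PPARG, the nuclear receptor that drives urothelial differentiation, at 9.82, 9.84 and 9.85. In none of the 3 genes did the arrays differ by more than 0.1. The brightest member was FOXQ1, a forkhead factor, at 11.34 ± 0.02. The splicing regulators ESRP1 and ESRP2, which set epithelial isoforms, were at 9.78 and 8.96, the epithelial factor ELF3 at 9.73, SOX4 at 9.53, KLF5 at 9.51 and TBX3 at 9.48. The grainyhead factors, which control epithelial junctions and barriers, were at 8.69 for GRHL1, 8.73 for GRHL2 and 7.13 for GRHL3. Lower members above the line were RXRA at 7.80, OVOL1 at 7.74, TFAP2C at 7.18, OVOL2 at 7.09, EHF at 6.98, RARG at 6.73, KLF4 at 6.43, TBX2 at 6.23, TFAP2A at 5.70 and SOX9 at 4.90. SOX9 lay between the lines, and ZNF750, a factor of terminal squamous differentiation, was below the background line at 4.14 ± 0.13.

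Factors that mark other lineages were mostly at background. Of 24 measured, 8 (33.3%) lay above the line. The highest were MITF of melanocytes at 6.85, PAX8 of kidney and thyroid at 6.74, DMRT1 of the gonad at 6.01 and GATA1 of erythroid cells at 5.60. GATA6 at 5.57 and the muscle factor MYOD1 at 5.18 were also above the upper line, while NKX2-1 at 4.76 and TBXT at 4.59 lay between the lines. SPI1 of myeloid cells and PAX6 of the eye and brain were at 2.99 and 2.57.

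The uroplakins ranged from 3.46 for UPK1A to 11.78 for UPK1B. UPK1B, a tetraspanin uroplakin that is also made outside umbrella cells, was at 11.77, 11.82 and 11.75, at or above 99.2% of rows. UPK3B was at 8.08 ± 0.01. UPK2, an umbrella-cell uroplakin, was at 4.46, 5.06 and 4.81, which crosses the background line, and UPK3A and UPK1A were below it at 4.28 ± 0.25 and 3.46 ± 0.27. Of 20 measured genes of urothelial differentiation, 15 (75%) lay above the line. Besides S100P and UPK1B the brightest were DHRS2 at 12.51, the glutathione peroxidase GPX2 at 11.96 and the surface antigen PSCA at 10.42. HPGD, which breaks down prostaglandins, was at 8.73, the TEAD cofactor VGLL1 at 7.95 and the fatty acid carrier FABP4, a PPARG target, at 6.48. CYP4B1 at 5.77, PLA2G2A at 5.68, TMPRSS2 at 5.53 and TOX3 at 5.36 followed, with SNX31 at 4.73 between the lines. KRT20, the keratin of umbrella cells, was at 2.76, 2.57 and 2.57, and SPINK1 and BHMT were also below the line at 2.28 and 4.01.

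Among the measured keratins, those of simple and transitional epithelia were the brightest, and the basal keratins were lower or at background. No row was matched for KRT8, KRT18, KRT17, KRT6A or KRT6B, so these keratins were not described. KRT19, a keratin of simple and transitional epithelia, was at 12.91, 12.97 and 12.85, KRT7 at 12.32, 12.32 and 12.25 and KRT13, a keratin of the intermediate urothelium, at 11.90, 11.89 and 11.85. These 3 keratins were at or above at least 99.3% of rows. The basal keratin KRT5 was at 7.38, 7.38 and 7.35 and KRT15 at 7.40, 7.38 and 7.38, well above the upper line on each array. KRT14, the usual partner of KRT5 in basal cells, was at 4.24, 3.95 and 4.42, below the background line on each array. Of 22 measured type I keratins 7 lay above the line, the others being KRT10 at 10.31 and, between the lines, KRT16 at 5.02, KRT32 at 4.72 and KRT23 at 4.64. Of 20 measured type II keratins 4 did, including KRT80 at 9.02 and the hair keratin KRT85 at 4.74, which lay between the lines. Keratin genes share sequence, and signal from a close relative cannot be told apart on these probes.

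Epithelial adhesion genes were high, apart from the claudin CLDN3 and the desmosomal cadherins DSG3, DSC3 and DSC2. Of 23 measured, 19 (82.6%) lay above the line, against 60.9% of all rows, and all 19 also above the upper line. EPCAM was at 11.24, 11.22 and 11.41, the tight-junction protein CLDN1 at 10.57 and the plaque protein JUP at 10.38. The classical cadherins CDH1 and CDH3 were at 9.12, 9.19 and 9.14 and at 9.38, 9.41 and 9.29. Next in order were CTNNA1 at 9.71, CLDN4 at 9.66, CLDN7 at 8.79, DSP at 8.59, CLDN12 at 8.50 and PPL at 8.02. Lower members were GJB2 at 7.94, DSG2 at 7.59, TJP1 at 7.57, MARVELD3 at 7.42, PKP3 at 7.26, PKP2 at 6.67, EVPL at 6.53 and PKP1 at 5.46. The 4 members below the line were CLDN3 at 3.82, DSG3 at 2.97, DSC3 at 2.56 and DSC2 at 2.56.

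Mesenchymal genes were mostly at background, with exceptions. VIM, the intermediate filament of mesenchymal cells, was at 4.01, 4.01 and 4.09, below the line on each array, as were CDH2 at 3.93 and the repressors of epithelial genes ZEB1 at 2.53, ZEB2 at 2.25 and TWIST1 at 2.34. The exceptions included SNAI2, a zinc-finger repressor that basal epithelial cells also use, at 9.65, 9.66 and 9.72. S100A4 was at 9.46, the gelatinase MMP2 at 8.59, TAGLN at 8.12 and fibronectin, FN1, at 7.47. THBS1 at 6.99, TWIST2 at 5.47 and COL1A1 at 5.42 completed the 8 of 21 (38.1%) above the line, against 60.9% of all rows. COL1A2, the partner chain of COL1A1 in type I collagen, was at 3.11.

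Most defining markers of other cell types were at or below the background line. PTPRC, the pan-leukocyte surface phosphatase, was at 2.19, 2.21 and 2.04, with 2.5% of rows at or below it, and MS4A1 and CD163 were at 2.81 and 3.14. Of 22 leukocyte markers 9 (40.9%) lay above the line, against 60.9% of all rows. They were led by the actin-bundling protein LCP1 at 9.15 ± 0.13 and by CORO1A at 8.02, 8.03 and 7.94. The other 7 were CD74 at 5.83, CD4 at 5.64, HLA-DRA at 5.50, CD68 at 5.39, CD79A at 5.04, CD3E at 4.94 and CD3D at 4.86. Of 11 endothelial markers 1 lay above the line, ESAM at 5.94, and PECAM1, CDH5 and VWF were at 3.99, 3.25 and 4.04. Of 11 neuroendocrine markers ENO2 alone did, at 5.93, with CHGA at 3.39 and INSM1 at 2.28. Of 14 fibroblast and smooth muscle markers 5 did, ACTA2 at 6.39, COL6A1 at 5.43, PI16 at 5.28, DES at 5.25 and THY1 at 4.82, while DCN, PDGFRA and LUM were at 3.88, 2.51 and 1.90.

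**Figure D2:**
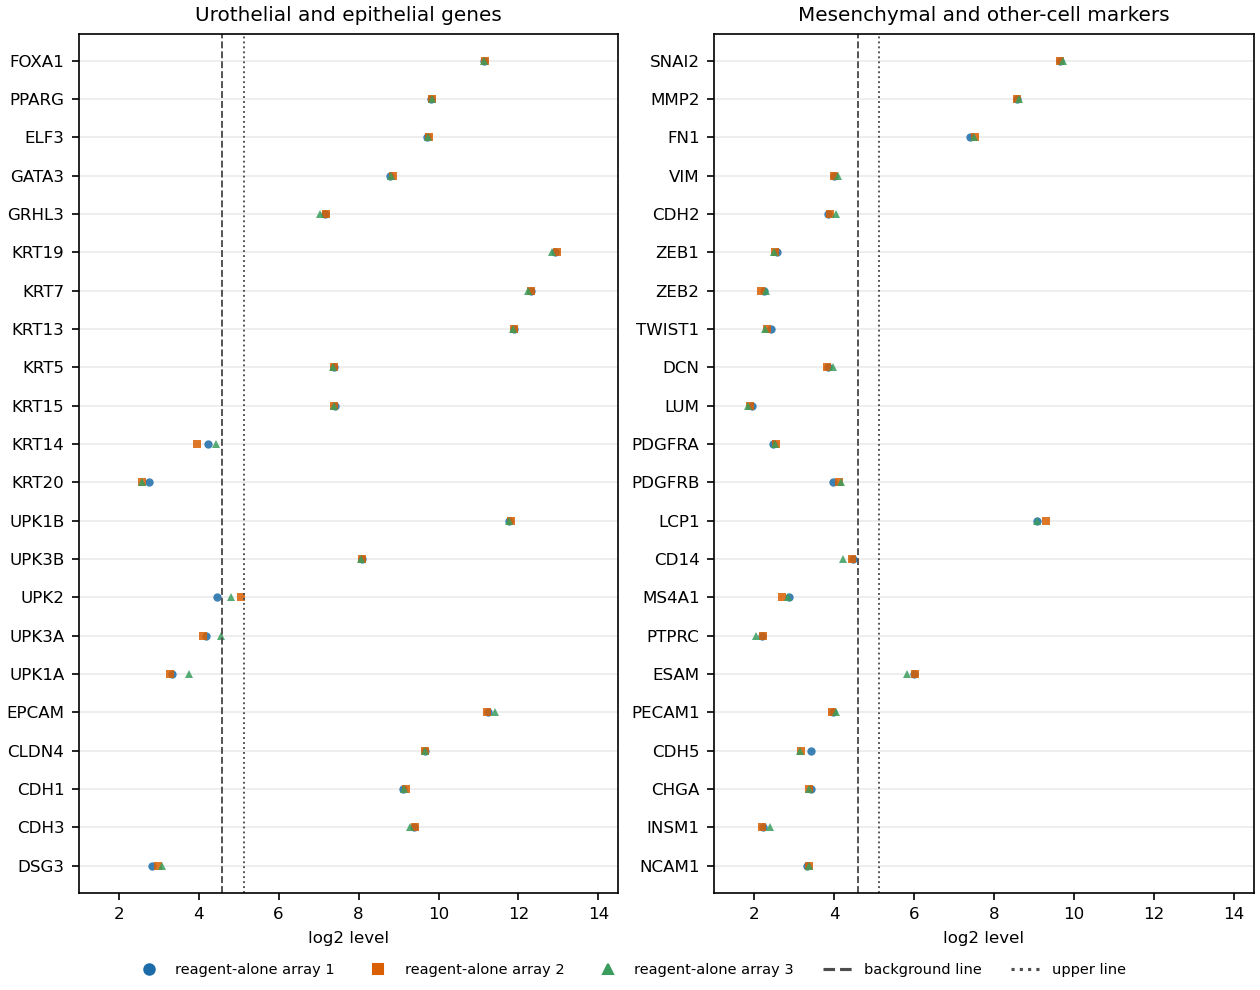
Log2 level of urothelial and epithelial genes (left) and of mesenchymal and other-cell markers (right) on each of the 3 reagent-alone arrays, 1 symbol per array. The dashed and dotted lines are the background line at 4.59 and the upper line at 5.13; FOXA1, KRT19, UPK1B and EPCAM lie far to the right, while KRT14, KRT20, VIM and PTPRC lie left of the background line.

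FGFR3 was the brightest of the 4 FGF receptors on these arrays. Its level was 8.70, 8.75 and 8.73 on arrays 1, 2 and 3, with a mean of 8.73 ± 0.03, at or above 87.7% of rows. FGFR1 was at 5.50, 5.44 and 5.30 and FGFR2 at 5.08, 5.09 and 5.19. FGFR4 was at 4.64, 4.72 and 4.68, between the lines. The 3 lower receptors did not overlap FGFR3 or one another on any array. Their order rests on different probes. FGFR2 crossed the upper line, with 2 arrays below it and 1 above. FGFRL1, a receptor-like protein without a kinase domain, was below the background line at 4.44 ± 0.12.

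Of 21 measured proteins that carry FGFs or pass on the receptor signal, 16 (76.2%) lay above the background line, against 60.9% of all rows, and 13 above the upper line. The heparan sulfate proteoglycans, which hold FGFs at the cell surface, were at 10.54 ± 0.04 for SDC4, 10.49 ± 0.03 for SDC1 and 8.23 for GPC1. FGFBP1, which releases FGFs from the matrix, was at 8.24, 8.29 and 8.09. The adaptors SHC1 and GRB2, which link receptors to RAS, were at 10.11 and 9.06, and PLCG1, SOS1, SOS2, CBL, PTPN11 and GAB1 were at 6.96, 6.28, 5.88, 6.25, 5.55 and 4.85. FGFBP3 was at 4.93 and FRS3, a docking protein, at 4.62, and these 2 and GAB1 lay between the lines. No row was matched for the docking protein FRS2, so FRS2 was not described. Of the Sprouty feedback inhibitors, SPRY4 was at 6.18, SPRY1 at 5.78 and SPRY2, below the line, at 3.58. The klotho co-receptors of the hormone-like FGFs were below the line as well, KLB at 4.45 and KL at 2.55.

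FGF ligands were near background as a family. Of 22 measured, 4 (18.2%) lay above the background line and 1 above the upper line. That 1 was FGF6, a ligand of muscle, at 5.35, 5.52 and 5.59. FGF22 at 4.86, 4.82 and 5.38 and FGF17 at 4.86, 4.62 and 5.12 had means between the lines, with array 3 the highest in both, and FGF11, an intracellular member that is not secreted, was at 4.81, 4.67 and 4.74. The range over arrays exceeded 0.5 for FGF22 and FGF17. The ligands FGF1 and FGF2, which bind FGFR3 among other receptors, were at 2.76 ± 0.05 and 2.54 ± 0.07. FGF7 and FGF10, stromal ligands of epithelial FGFR2, were at 2.45 and 2.55, and FGF9, at 2.21, was the dimmest of the family. The remaining 13 members ranged from 2.55 for FGF20 to 4.07 for FGF23.

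In the ERBB family ERBB3, a receptor with little kinase activity of its own, was the brightest, at 7.55, 7.54 and 7.57. EGFR was at 5.56, 5.67 and 5.64, above the upper line on each array. ERBB2 was at 4.51, 4.53 and 4.50 and ERBB4 at 3.46, 3.60 and 3.47, below the background line on each array. ERBB2 lay within 0.1 of that line. Of 9 measured ERBB ligands 4 lay above it, and no row was matched for the ligands AREG and EPGN. HBEGF, a heparin-binding EGFR ligand, was at 7.46, 7.53 and 7.52, TGFA at 6.43, 6.42 and 6.32, the ERBB4 ligand NRG4 at 5.89, 6.03 and 5.80 and BTC at 4.91, 4.99 and 4.72. BTC was the only 1 of these 4 whose mean lay between the lines. The ERBB3 ligands NRG1 and NRG2 were at 3.32 ± 0.07 and 3.09 ± 0.09, EGF at 2.89 ± 0.02, EREG at 2.26 ± 0.25 and NRG3, with 1 array above the line, at 4.46, 4.74 and 4.21.

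Of 56 measured receptor tyrosine kinases 28 (50%) lay above the line, which is below the 60.9% of all rows. The highest were EPHA2, an ephrin receptor of epithelia, at 9.49 ± 0.01, the collagen receptor DDR1 at 9.45 ± 0.03 and EPHB6 at 8.73 ± 0.06. EPHA2 and DDR1 overlapped on the 3 arrays, as did EPHB6 and FGFR3. The WNT co-receptor RYK was at 8.62, EPHA1 at 7.94 and MST1R, the receptor of macrophage-stimulating protein, at 7.88. Its ligand MST1 was at 6.67. MET was at 6.69, while its ligand HGF, a product of stroma, was at 2.42. IGF1R was at 6.52 and its ligand IGF1 at 3.39. AXL was at 5.23 and its ligand GAS6 at 6.29, and KIT was at 5.12 and KITLG at 5.01. For MST1R, AXL and KIT, receptor and ligand rows were both above the background line, although KIT and KITLG both lay below the upper line. For MET and IGF1R only the receptor row was above the background line. The receptors of vessels and stroma were below it, with KDR at 2.41, PDGFRA at 2.51 and PDGFRB at 4.09. Of 33 measured ligands of receptor kinases outside the FGF and ERBB families 22 (66.7%) lay above the line. The highest were midkine, MDK, at 8.87 ± 0.04, VEGFA at 8.50 ± 0.10 and the ephrins EFNB2 at 7.93 and EFNA4 at 7.76.

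**Figure D3:**
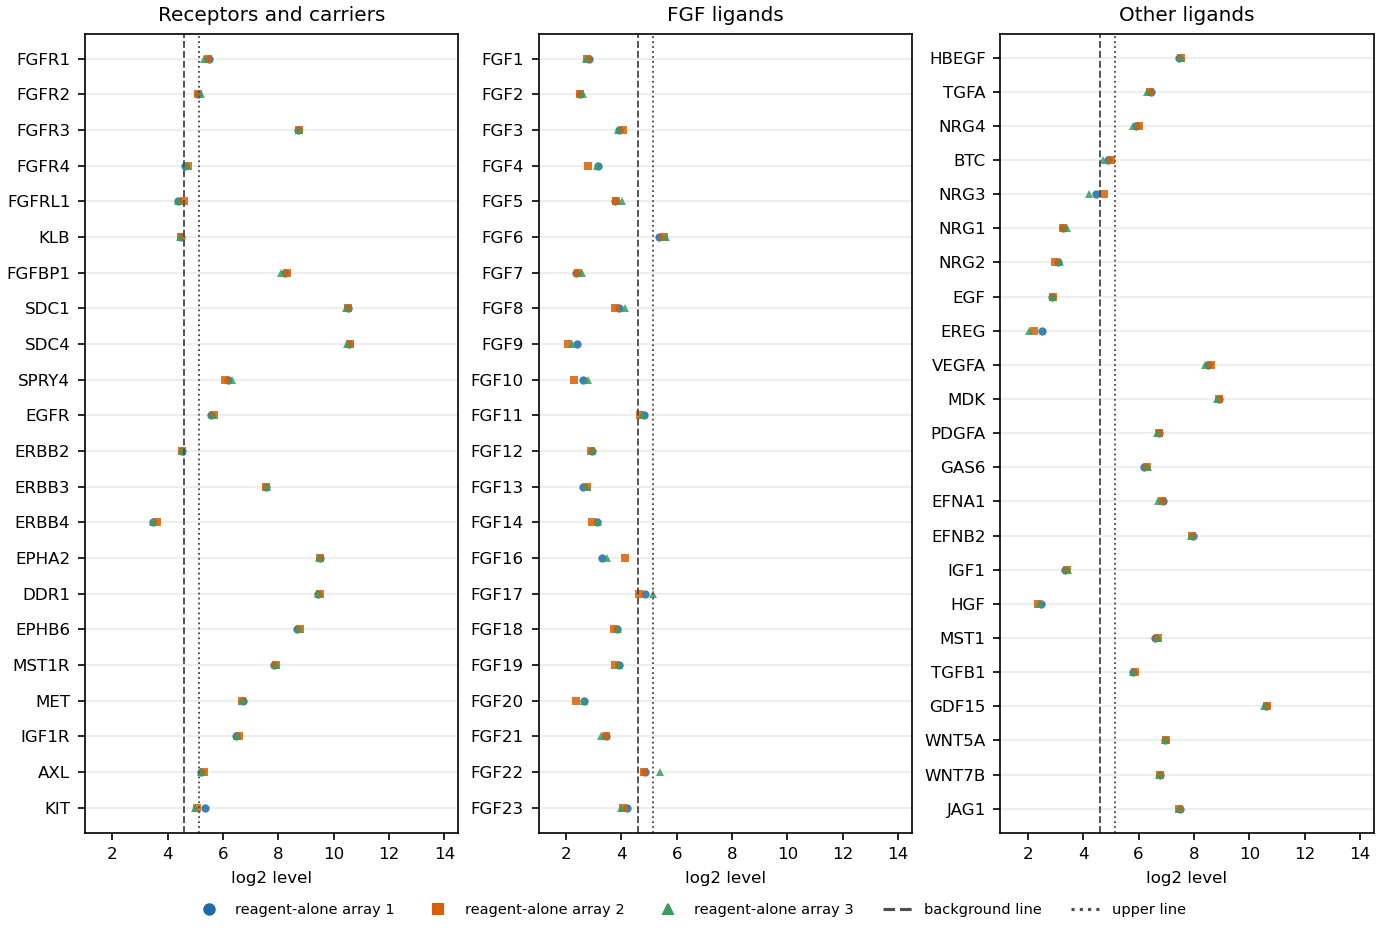
Log2 level of receptors and FGF carriers (left), FGF ligands (middle) and other ligands (right) on each of the 3 reagent-alone arrays, 1 symbol per array. The dashed and dotted lines are the background line at 4.59 and the upper line at 5.13; FGFR3 lies right of FGFR1, FGFR2 and FGFR4, and among the FGF ligands FGF6 has all 3 arrays right of the upper line.

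Receptors of the WNT and TGF-beta families lay above the background line in a share close to that of all rows (60.9%). Of 15 WNT receptors 10 (66.7%) lay above it, led by FZD6 at 9.85, FZD7 at 8.29, FZD10 at 8.04 and FZD5 at 7.32, then LRP5 at 6.85, FZD3 at 6.67, FZD2 at 6.19, LRP6 at 5.82, FZD1 at 5.80 and LGR4 at 5.70. Of 18 WNT ligands 8 (44.4%) did, with WNT5A at 6.97 and WNT7B, an epithelial WNT, at 6.77 clearly highest. WNT10B at 5.26 and WNT8B at 5.17 were close to the upper line, and WNT10A, WNT11, WNT4 and WNT7A lay between the lines at 5.05, 4.87, 4.87 and 4.68. Of 12 TGF-beta and BMP receptors 8 (66.7%) lay above the line, led by the co-receptor TGFBR3 at 9.99, 9.99 and 10.01. ACVR1 was at 8.34, BMPR2 at 7.78, ACVR2A at 7.31, TGFBR2 at 6.93, ACVR1B at 6.36, ACVR2B at 6.08 and TGFBR1 at 5.66. The list of ligands of that family had 18 measured members, and 9 lay above the line. It includes BMP1, at 5.88, which is a metalloprotease and not a ligand. The stress-induced GDF15, at 10.60 ± 0.05, stood far above GDF11 at 6.44, TGFB1 at 5.81 and the rest. The rest were BMP4 at 5.31, AMH at 5.31, TGFB3 at 5.30, INHBB at 4.97 and BMP8B at 4.70. The Notch genes above the line, 7 of 9, were JAG1 at 7.47, NOTCH2 at 6.75, DLL1 at 6.31, JAG2 at 6.12, NOTCH1 at 5.84, NOTCH3 at 5.27 and DLL4 at 5.17. In the Hedgehog pathway SHH, a ligand of basal urothelial cells, was at 5.85, SMO at 6.03, GLI3 at 5.99 and IHH at 4.66. PTCH1 and GLI1, the usual targets of Hedgehog signalling, were below the line at 2.997 and 4.21.

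Of 40 nuclear receptors 20 (50%) lay above the line, against 60.9% of all rows. PPARG was the brightest and its partner RXRA was at 7.80, with the vitamin D receptor VDR at 7.87, NR2F6 at 7.50 and the glucocorticoid receptor NR3C1 at 7.48. The oestrogen receptor ESR1 and the progesterone receptor PGR were below the line at 4.47 and 2.53.

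Of 45 cytokines and chemokines 15 (33.3%) lay above the background line, against 60.9% of all rows. IL1A was at 9.35, 9.34 and 9.34, IL1B at 7.94, 7.91 and 7.89 and the antagonist IL1RN at 7.18, while the related IL18 and IL33 were below the line at 4.57 and 1.98. The neutrophil chemokine CXCL8 was at 7.93, 7.83 and 7.74, and its relatives CXCL1 and CXCL2 were at 6.92 and 6.06. LIF was at 7.08 and CCL20 at 6.69. IL6, TNF and IFNB1 were below the line at 2.96, 3.51 and 2.81. Of 49 cytokine and death receptors 33 (67.3%) lay above it, a share near the 60.9% of all rows. They were led by TNFRSF21 at 11.005, TNFRSF12A at 10.19, TNFRSF1A at 9.96 and IFNGR1 at 9.80. The signal-carrying IL1R1 was between the lines at 4.72, and its accessory chain IL1RAP was at 7.31.

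Interferon-stimulated genes were above the line in 23 of 24 cases (95.8%), against 60.9% of all rows. The interferon ligands IFNA1, IFNB1, IFNE, IFNG, IFNK and IFNL1 were at 1.91 to 3.38. ISG15, a ubiquitin-like protein, was at 10.63, 10.62 and 10.57. BST2 was at 9.31, IFI6 at 8.96, IFIT3 at 8.46, OAS1 at 8.41, IFI44 at 8.24, IRF1 at 8.03, OASL at 7.98 and CMPK2 at 7.83. XAF1, MX1, IRF9, MX2 and IFIT1 ranged from 6.64 for IFIT1 to 7.42 for XAF1, and OAS2, IRF7, RIGI, IFIT2 and IFIH1 from 5.80 for IFIH1 to 6.64 for OAS2. IFITM2, IFITM1, IFI44L and IFI27 were close to the upper line at 5.25, 5.23, 5.19 and 5.06, and RSAD2 was below the background line at 4.20, 4.04 and 4.15. The design has no untreated cells, and the part of the reagent in these levels was not tested. Antigen presentation genes were above the line in 18 of 22 cases (81.8%). HLA-C was at 11.95, HLA-B at 11.61 and the immunoproteasome subunits PSMB8 and PSMB9 at 9.88 and 9.70. PSMB10 was at 8.89, the peptide transporter subunits TAP1 and TAP2 at 8.73 and 7.03, TAPBP at 8.31, and HLA-F, HLA-E and HLA-G at 9.43, 9.10 and 7.18. Class II genes were lower, with HLA-DMA at 6.54, HLA-DMB at 5.61 and HLA-DRB1 at 4.88. The class I activator NLRC5 lay between the lines at 4.74, and CIITA, the activator of class II, was below them at 4.41. HLA genes are near-identical in parts, so that the levels of individual members are uncertain.

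Among surface antigens that drugs are aimed at, 12 of 22 (54.5%) lay above the line, a share near the 60.9% of all rows. EPCAM, PSCA and FGFR3 led the list, and F3, tissue factor, was at 7.84 ± 0.02. CD47 was at 7.67, CD276 at 7.35, NECTIN4, the target of an antibody used in urothelial cancer, at 6.92, 6.90 and 6.87, CEACAM6 at 6.54 and CDCP1 at 6.32. CD274, the ligand of PD-1, was at 4.92, 5.14 and 4.94, with array 2 alone just above the upper line. MSLN, FOLR1 and MUC16 were below the background line at 2.61, 3.70 and 3.23. Of 13 mucins 2 lay above it, MUC20 at 9.66 and MUC2 at 5.53, with MUC1 at 4.49 and MUC4 at 2.54.

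Genes of the basement membrane were mostly above the line, and 10 of 24 integrins (41.7%) were, against 60.9% of all rows. The integrins were led by ITGAV at 10.50, the laminin-binding ITGA6 at 10.44, ITGAE at 9.69 and the collagen-binding ITGA2 at 8.92. ITGB5, ITGB6, ITGA3, ITGA5 and ITGB4 were at 7.59, 7.44, 7.37, 6.72 and 5.74, and ITGB7 lay between the lines at 4.87. Of 15 laminin and basement membrane genes 12 (80.0%) did, led by LAMB3 at 9.72, LAMA5 at 9.30, LAMC1 at 9.21 and LAMB1 at 8.24. COL7A1 was at 7.50, COL4A1 at 6.95, HSPG2 at 6.69, COL4A2 at 6.28, COL4A5 at 6.11, LAMB2 at 5.63, LAMC3 at 5.08 and NID1 at 4.998. Of 28 proteases and inhibitors 19 (67.9%) did, a share near the 60.9% of all rows. The plasminogen activators PLAT and PLAU were at 10.51 and 8.25, the receptor of PLAU, PLAUR, at 6.59, and the protease inhibitors TIMP1, TIMP3 and SERPINE2 at 10.08, 9.32 and 8.65. The sheddases ADAM10 and ADAM17 were at 9.29 and 7.51, and MMP14, which activates MMP2, at 7.80. MMP1, MMP3 and MMP7 were below the line at 3.69, 2.29 and 3.48. The S100 and annexin list had 23 of 28 members above the line, with a median level of 9.77 against 5.42 over all rows. S100A6, S100A16, ANXA5, S100A9, S100A14, S100A13, ANXA7, ANXA1, S100A8 and ANXA4 fell in order from 11.90 for S100A6 to 9.16 for ANXA4. ANXA11, ANXA9, ANXA3, S100A3 and S100A12 were at 8.22, 7.12, 6.49, 5.91 and 5.57. S100B, a glial member, was at 2.57.

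Nutrient carriers above the line numbered 19 of 25 (76.0%), against 60.9% of all rows. The glutamine carriers SLC38A2, SLC38A1 and SLC1A5 were at 11.29, 10.10 and 9.12, and the large neutral amino acid carrier SLC7A5 and its partner SLC3A2 at 10.63 and 10.08. The cystine carrier SLC7A11 was at 9.65. The glucose carrier SLC2A1 was at 6.73, below SLC2A9 at 7.57, SLC2A8 at 7.41 and SLC2A6 at 6.96 in the order of signal, while SLC2A3 and SLC2A4 were below the line at 2.61 and 3.35. The other carriers above the line were SLC7A8 at 7.12, SLC2A10 at 6.67, SLC7A1 at 6.63, SLC1A3 at 6.45, SLC1A4 at 6.14, SLC7A7 at 5.28, SLC2A5 at 5.05, SLC1A1 at 4.71 and SLC7A2 at 4.60, the last row of any list inside the line but for ANXA6 at 4.59 and TBXT. Just outside it were MMP11 at 4.585, AMHR2 at 4.58 and WNT3 at 4.57.

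All 22 proliferation genes lay above the upper line, with a median level of 9.96. PCNA, the clamp of DNA polymerase, was at 12.30 ± 0.02, and RRM2, which makes deoxynucleotides, at 11.97 ± 0.02. The mitotic genes UBE2C, TOP2A, CDK1, CCNB2, AURKA and TPX2 were at 11.53, 11.22, 10.77, 10.49, 10.41 and 10.18. The replicative helicase subunits were between 7.10 for MCM6 and 10.41 for MCM2. TYMS, CCNA2, CCNB1 and BIRC5 were at 10.10, 9.94, 9.57 and 9.39, and AURKB, MKI67, BUB1 and PLK1 at 8.14, 8.02, 7.90 and 7.44. Housekeeping complexes were counted by named rows only, and not all ribosomal proteins and elongation factors had one. These named rows lay above the line almost throughout. Above it were 33 of 34 ribosomal protein rows and 4 of 4 elongation factor rows. So were 67 of 72 respiratory chain rows and 32 of 33 proteasome rows. The members below it were RPL3L of muscle at 3.39, PSMA8 of testis at 2.09 and the 5 respiratory isoforms COX6A2, COX6B2, COX7A1, COX7B2 and COX8C, which are known from heart, muscle or testis.

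Of 31 genes altered in bladder cancer 26 (83.9%) lay above the line. NFE2L2, the regulator of antioxidant genes, was at 10.36 ± 0.06, MYC at 10.04 ± 0.08 and the cyclin CCND1 at 9.90 ± 0.03. CDKN1A was at 9.73, HRAS at 9.38, CCND3 at 9.34, TACC3, a fusion partner of FGFR3 in some tumours, at 9.31, CCNE1 at 8.08 and E2F3 at 7.89. The chromatin regulators ARID1A, EP300, KDM6A, KMT2C, CREBBP and KMT2D were at 7.71, 7.56, 7.04, 6.94, 6.69 and 6.35. RBM10, RHOB, TSC1, SPTAN1, ERCC2, STAG2, MDM2 and MYCL were at 8.76, 7.79, 7.44, 7.02, 5.81, 5.51, 5.45 and 5.34, and TERT was between the lines at 4.95. The 5 members below the line were ATM at 4.44, RB1, CDKN2A, CDKN2B and MTAP. RB1, the retinoblastoma tumour suppressor, was at 2.42, 2.23 and 2.28. CDKN2A, which encodes the inhibitors p16 and ARF, was at 3.20, 3.19 and 3.16, CDKN2B at 2.21, 2.28 and 2.39 and MTAP, an enzyme of methionine salvage that neighbours CDKN2A, at 2.60, 2.73 and 2.71. The share of all rows at or below these levels was 4.7% for RB1, 18.4% for CDKN2A, 4.5% for CDKN2B and 10.5% for MTAP. CDKN2A was near the median of the olfactory receptor rows.

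RB1, CDKN2A, CDKN2B and MTAP lay in runs of neighbouring dim rows. In the gene order of the RefSeq table, RB1 on chromosome 13 was the first of 23 consecutive coding rows below the background line, up to ATP7B. Their median level was 2.66 and 15 of them were under 3. The run held genes that many cell types use, such as RNASEH2B, a subunit of a nuclease that removes RNA from DNA, at 2.59, 2.45 and 2.63. INTS6 of the Integrator complex was at 2.31, 2.33 and 2.33 and the nuclear import receptor KPNA3 at 3.09, 3.35 and 3.50. In no row of the run was more than 1 array above the line. The next rows on one side, ITM2B, MED4 and SUCLA2, were at 11.68 ± 0.04, 7.70 ± 0.08 and 9.85 ± 0.01, and on the other UTP14C, NEK3 and VPS36 were at 8.31 ± 0.01, 5.26 ± 0.16 and 7.63 ± 0.03. On chromosome 9 a run of 10 coding rows reached from IFNA6 to ELAVL2 and held MTAP, CDKN2A and CDKN2B. It was flanked by KLHL9 at 6.70 ± 0.06 and TUSC1 at 9.84 ± 0.04, and 5 of its rows were type I interferon genes, which resting cells hardly use. Over the genome 3131 runs lay below the line and 16 of them had at least 10 rows. The longest, 27 rows from KRTAP1-5 to KRT38 on chromosome 17, holds hair keratins and their associated proteins, and others hold lectin-like receptors or protocadherins. The search for runs was made after the levels of RB1 and CDKN2A had been seen. Copy number was not measured on these arrays.

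**Figure D4:**
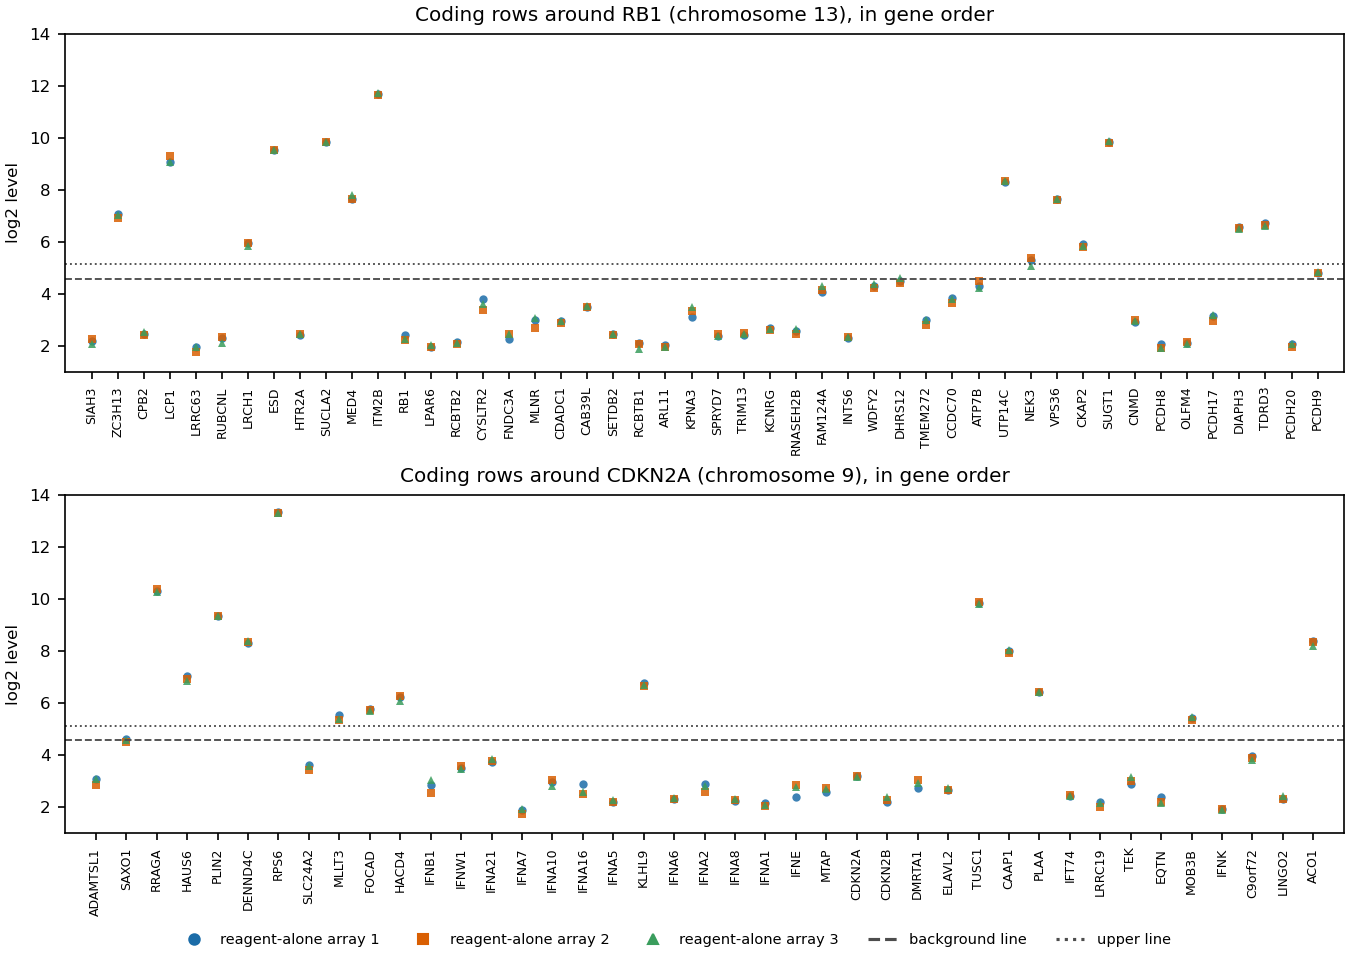
Log2 level of coding rows around RB1 on chromosome 13 (top) and around CDKN2A on chromosome 9 (bottom) on each of the 3 reagent-alone arrays, in gene order with even spacing. The dashed and dotted lines are the background line at 4.59 and the upper line at 5.13; the 23 rows from RB1 to ATP7B lie below the background line between the bright rows ITM2B and UTP14C, and the 10 rows from IFNA6 to ELAVL2 lie below it between KLHL9 and TUSC1.

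The HOX genes, which record the position of a tissue along the body axis, differed by cluster. Of 10 HOXB genes 8 lay above the upper line, HOXB7 at 9.62 ± 0.03, HOXB2 at 9.35 ± 0.03, HOXB6 at 8.25, HOXB9 at 7.89, HOXB3 at 7.68, HOXB5 at 7.50, HOXB4 at 7.34 and HOXB8 at 6.89. The end genes of the cluster, HOXB1 at 4.46, 4.46 and 4.70 and HOXB13, a gene of the prostate and distal gut, at 3.69, 3.81 and 3.83, were below the background line on the mean. Of 9 HOXC genes 5 lay above it, HOXC6 at 7.96, HOXC4 at 7.27, HOXC13 at 6.67, HOXC5 at 6.24 and HOXC9 at 4.94. Of 9 HOXD genes 4 did, HOXD4 at 6.68, HOXD1 at 6.61, HOXD9 at 6.25 and HOXD8 at 5.09. A row was matched for 1 of 11 HOXA entries, HOXA2 at 4.77, 4.71 and 4.57, which crosses the background line, so that this cluster was not described. Cancer-testis genes, which are silent outside the germ line and often switched on in tumours, were above the line in 1 of 28 cases, ACTL8 at 5.63, 5.67 and 5.71. PRAME, MAGEA4 and SSX1 were at 3.52, 2.03 and 2.02. By class of transcript, 66.4% of 16255 coding rows and 21.5% of 2018 long non-coding rows lay above the background line.

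The 3 arrays differed little. The median SD of a row was 0.064 over all rows, 0.0495 above the background line and 0.0976 below it. It fell from 0.104 between level 3 and level 4 to 0.0256 above level 12. A range under 0.2 was found in 10151 rows above the line (86.1%). A range over 0.5 was found in 60 of the 11790 rows above the line (0.509%) and in 267 rows below it. Of these 60 rows, 54 had a mean under 6, close to the background. Only CYP2A7, a cytochrome P450 with near-identical relatives, had a range over 1, at 4.46, 4.18 and 5.29. The next named rows in order of range were IDI2-AS1 at 5.50, 4.88 and 4.64, the activin subunit INHBB at 4.65, 4.77 and 5.49 and SNORA72 at 4.43, 5.08 and 5.25. DLK2, a Notch-related membrane protein, was at 6.58, 5.80 and 6.51, and MIR205, the row of an epithelial microRNA locus, at 4.62, 5.30 and 5.36. LY6G5B was at 4.83, 5.30 and 4.58, the adaptor GRB14 at 4.99, 4.83 and 4.28 and IFI44L at 5.52, 5.25 and 4.81, and the third of the 10 widest rows carries no name. These rows lay on different arrays at their extremes: GRB14 and IFI44L were lowest on array 3, INHBB and SNORA72 highest there, and DLK2 and CYP2A7 lowest on array 2. Over the 60 rows the value farthest from the median of the row was on array 3 in 30, on array 1 in 20 and on array 2 in 10, and over all rows above the line it was on array 3 in 40.9%. Of the wide rows, 6 had a mean of 6 or more, which were CST2 at 7.36, 6.94 and 6.69, HBG2 at 6.74, 6.80 and 7.32, R3HDM2 at 6.44, 6.22 and 6.81, DLK2, LGALS9 at 5.89, 6.43 and 6.38 and DMRT1 at 6.28, 5.76 and 6.002. The 3 arrays lay on both sides of the background line in 514 rows, above it on each array in 11527 rows, and at or below it on each array in 7320 rows.

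**Figure D5:**
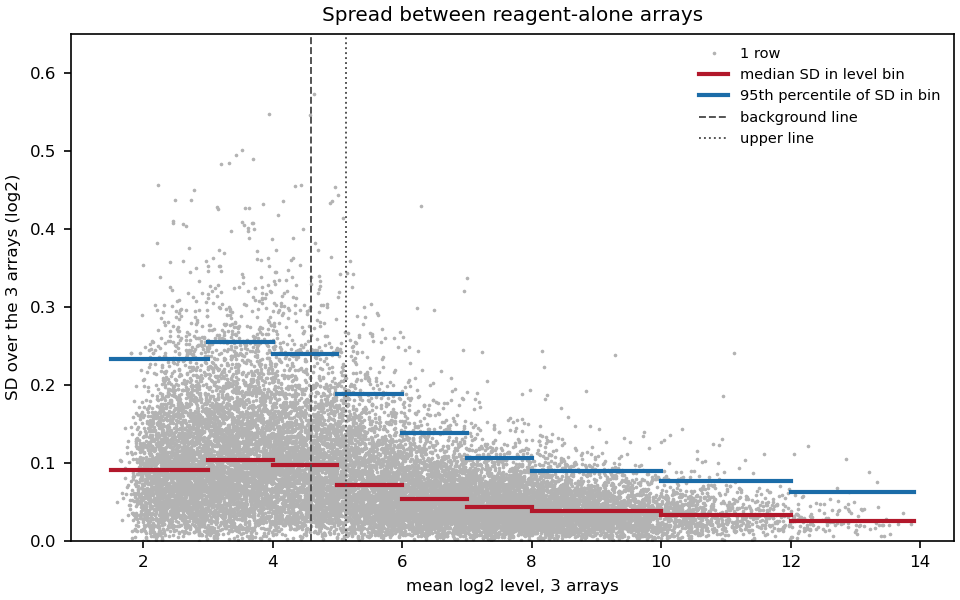
SD over the 3 reagent-alone arrays (log2) against the mean log2 level, with 1 grey point for each of the 19361 rows; red and blue bars give the median and the 95th percentile of the SD in bins of level. The dashed and dotted lines are the background line at 4.59 and the upper line at 5.13; the median SD falls from 0.104 between level 3 and level 4 to 0.0256 above level 12.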

How the data were processed

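The deposited table gives log2 levels that the authors made with RMA and affy, named without versions per the submitters' processing notes. RMA subtracts background, gives all arrays the same distribution and summarises the probes of a row, which evens out differences between arrays. The distribution was set over all 6 arrays of the table, and only the 3 lipofectamine arrays were read. The deposited table holds 19361 rows, 1 per Entrez gene ID, and 18669 were named through GEO's platform annotation and the gene table of RefSeq for GRCh38.p14. For the regrouped probes no genome build is stated in the sources at hand, so no coordinates of rows are printed and RefSeq served for names, gene order and promoters only.

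Means, SDs, ranges and ranks were computed with pandas 2.3.3 and numpy 2.4.6 in Python 3.11.15 and tested on simulated data. With 1 group of 3 arrays no test was made and no p-value is given. Array data have no read depth, and the number of arrays limits the precision. Of 980 entries in 41 hand-written gene lists, 879 matched a named row, and 4 more lists were matched by the shape of the symbol. Named genes are the 20 brightest rows, the 10 widest above the background line, the 4 brightest members of each list, further members above the line in lists of up to 30 measured members, and all FGF and ERBB receptors and ERBB ligands. Other members, mainly those below the line, were named after their values were seen, and the lists themselves were chosen with earlier results of these data known. The alternatives were other background lines, a line that each array must pass, centred arrays, medians, linear means and leaving out each array.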

Additional observations from a re-analysis of the deposited data

How the results depend on the processing

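The number of rows above the background line was 11790, and 10386 to 11806 when the line was the 99th percentile of the olfactory receptor rows or came from the off-tissue genes, when each array had to pass it, when arrays were centred and when 1 array was left out. An alternative added after seeing the data, a line at the 30th percentile of all rows, gave 13552. The 629 list members above the line became 558 to 634 and, with the added line, 726. At the 99th percentile the counts above the line were 4 type I keratins, 1 FGF ligand, 4 WNT ligands and 0 HOXA genes, and HOXA was also at 0 with the off-tissue line and with the line required on each array. With the added line there were 10 type II keratins, 14 leukocyte markers, 4 endothelial markers and 2 neuroendocrine markers. There were also 14 members of the TGF-beta and BMP ligand list, 3 cancer-testis genes and 5 mucins. No other list count moved by over 1.5 times under these settings or without any 1 array. The number of rows with a range over 0.5 was 327 over all rows, dim rows included, and 17 to 27 without 1 array, against 60; with 2 arrays left the range is smaller by construction, and the lowest number was without replicate 3. No paired analysis was possible because no comparison between groups was made. The probes of dim rows set the limit: 7.25% of rows lay between the background and upper lines, where a row cannot be told from background.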
